A study of Mus musculus with 18 samples.

Results

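The cytosolic ribosomal protein genes were the 88 rows, of 43346 in the table of raw counts, whose symbol has the form of a ribosomal protein (Rpl or Rps with a number, Rplp0, Rplp1, Rplp2 or Rpsa), without pseudogene symbols and S6 kinases. They comprise 37 genes named for the small and 51 named for the large subunit. Of the 88, 86 had a mean count above 0 and were tested, and 80 had a mean of at least 10 CPM (counts relative to the library total after correction by its TMM factor). RNA was measured in EPCAM-positive cells sorted by Lgr5-GFP from crypts of the small intestine (SI) and the large intestine (LI) of untreated C57BL/6 mice of the genotype Lgr5_eGFP_Iris_creERT2, labelled 8 to 20 weeks old, although the methods give a higher upper age and both sexes for the RNA sequencing. High, medium and low GFP stand for centre, border and row >3 Lgr5+ cells, which gave 6 groups of 3 libraries and 18 libraries in all. All 6 groups carry the same GFP and CreERT2 allele, and GFP from the Lgr5 locus, which is patchy between crypts in this line, decided which cells were sorted. The sources used here do not name the mouse behind each library, and p-values therefore measure the spread between these libraries.

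Ribosomal proteins assemble with ribosomal RNA into the small subunit, which reads the mRNA, and the large subunit, which joins amino acids. Most proteins of a subunit are needed in equal numbers, and cells tend to make them together. In mammals, many of their mRNAs begin with a tract of pyrimidines at the 5′ end, through which mTOR signalling and the protein Larp1 set their translation. In the crypt, ribosome production is known to be high in dividing cells and to decline as cells differentiate.

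RefSeq promoter windows on GRCm38.p6 were found by symbol for 63 of the 88 genes, after the entries of a single chromosome had been set aside. The start sites of 11 genes are shown. The first 8 are some of the genes called lower in SI row >3 cells, against SI centre or LI row >3 cells, and described in the results. The last 3, Rps27l, Rpl22l1 and Rpl7l1, are paralogues whose levels lay apart from the rest. Each window holds the 15 bases before and the 15 bases from the annotated start, and capitals mark every C followed by at least 4 C or T.
Rpl10a: gtggcgCCCCCCCagcggccgcaaactgca
Rpl36a: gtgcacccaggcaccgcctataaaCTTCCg
Rps9: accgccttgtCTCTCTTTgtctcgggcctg
Rpl13a: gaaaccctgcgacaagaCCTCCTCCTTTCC
Rpl12: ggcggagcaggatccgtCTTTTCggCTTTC
Rps18: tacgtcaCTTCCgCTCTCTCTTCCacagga
Rpl18: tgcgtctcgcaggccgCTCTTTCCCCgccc
Rpl7a: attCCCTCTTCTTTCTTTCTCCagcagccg
Rps27l: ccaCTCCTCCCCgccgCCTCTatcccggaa
Rpl22l1: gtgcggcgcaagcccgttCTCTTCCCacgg
Rpl7l1: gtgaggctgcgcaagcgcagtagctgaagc
In the same order, the windows lie at chr17:28328456-28328485, chrX:134585639-134585668, chr7:3704026-3704055, all on the plus strand, chr7:45128731-45128760 on the minus strand, chr2:32961697-32961726 on the plus strand and chr17:33955651-33955680 on the minus strand. The others lie at chr7:45718056-45718085, chr2:26910792-26910821, chr9:66946071-66946100 and chr3:28805493-28805522 on the plus strand and chr17:46782642-46782671 on the minus strand. All 8 genes of the first set have a run, and so do Rps27l and Rpl22l1, whereas the window of Rpl7l1 holds none. Rpsa, Rps4x, Rpl22 and Rpl5 were also called lower in SI row >3 than in SI centre cells, and their windows, not shown, hold none. Of all 63 windows, 39 hold a run, and whether the called genes differ from the others in this was not tested.

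Such a run lay within these 30 bases in 58.7% of the 75 promoter entries of the ribosomal protein genes. It lay there in 37.0% of the 8513 entries of genes with a mean CPM of at least 10. Of all 32851 entries that were kept, 36.4% had it. Motifs were searched on both strands from 250 bases before to 50 bases after the start. The 8 letters TCTCGCGA were present in 16% of the entries of ribosomal protein genes, in 2.49% of those of the expressed genes and in 0.995% of all. CCGGAAG, the core of ETS family sites, was present in 36.0%, 19.2% and 8.86%, and AAGATGG, part of YY1 sites, in 16%, 7.58% and 6.34%. These 2 motifs can share the letters AAG. The E box CACGTG, which Myc and Max can bind, was present in 10.7%, 10.4% and 7.15%, TATAAA in 9.33%, 6.92% and 13.6%, and the GC box GGGCGG in 60.0%, 65.1% and 35.7%. Some genes have several overlapping entries, and a match of letters is not evidence of binding.

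Between 8312093 and 31940965 counts were obtained per library (median 21934851.5), of which 190765 to 821237 fell on the ribosomal protein genes. Libraries with the same replicate number deviated together within a site (correlation of their deviations across genes from 0.244 to 0.698 in the SI and from 0.343 to 0.623 in the LI), so that numbers were read as pairs there. Lgr5 had 255, 203 and 120 CPM in SI centre, 75.7, 98.1 and 7.84 CPM in SI border and 8.24, 13.5 and 1.40 CPM in SI row >3 cells. In the LI it had 127, 119 and 112 CPM in centre, 82.7, 75.5 and 61.4 CPM in border and 6.70, 24.0 and 13.3 CPM in row >3 cells. The library labelled SI border replicate 3 thus goes against its label on this gene, since it lay below SI row >3 replicates 1 and 2, and results for SI border cells are given with and without it. Y-linked genes summed to between 1166 and 2372 counts in the replicate 2 libraries and to at most 1 in the others. SI replicate 3 stands apart at all 3 levels. Genes that were LI-specific against SI replicate 1 had, in SI replicate 3, a median of 60.7% of the LI value at the centre, 84.9% at the border and 79.3% in row >3 cells, against at most 1.75% in SI replicate 2. Summed markers moved with the groups. In the SI, the median of 10 summed goblet cell markers was 1402 CPM in centre, 9124 CPM in border and 36748 CPM in row >3 cells, and in the LI it was 9047, 11504 and 27263 CPM. Single goblet markers did not all move alike. Of the 10, edgeR called 6 higher and 1 lower in SI row >3 than in SI centre cells, where 7.35% and 5.82% of all genes were. The median of 20 summed G2/M genes was 4057, 3170 and 2093 CPM in the SI and 3633, 3372 and 2545 CPM in the LI, and that of 12 absorptive markers was 568, 1019 and 2760 CPM in the SI and 682, 1156 and 1705 CPM in the LI. The 9 Paneth cell markers summed to between 302 and 7948 CPM in SI libraries and to at most 139 CPM in LI libraries. The 10 tuft cell markers summed to 32.9, 38.9 and 498 CPM in SI centre libraries. In SI border and row >3 libraries these sums were 1098, 346 and 526 CPM and 428, 454 and 113 CPM. The 10 enteroendocrine markers summed to 46.2, 290 and 18.4 CPM in SI centre and 417, 618 and 86.8 CPM in SI row >3 libraries. In LI libraries tuft markers summed to 150 to 391 CPM and enteroendocrine markers to 54.3 to 306 CPM. The 6 epithelial markers summed to at least 2952 CPM in every library. The 12 immune markers summed to at most 81.4 CPM, and Trbc2 and Nkg7 were at 0 in several groups. The 12 stromal markers summed to at most 18.8 CPM, and Lum was at 0 in all groups. In these bulk samples, fewer cells of a type and less RNA per cell cannot be told apart.

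Per length of the principal transcript, Rplp1, a protein of the acidic stalk of the large subunit that recruits elongation factors, had the highest mean level of the large subunit genes, at 989 CPM per kb. The stalk proteins Rplp0 and Rplp2 had 611 and 605 CPM per kb. The lowest of this subunit with a mean CPM of at least 10 was Rpl7l1, at 23.8 CPM per kb, and the median of 47 genes was 319 CPM per kb. For the small subunit, Rps26 was highest at 753 CPM per kb, Rpsa, also known as the precursor of a laminin receptor, had 636 CPM per kb, and the median of 32 protein-coding genes was 308 CPM per kb. Rps15a was lowest at 21.2 CPM per kb, a level divided by an annotated transcript of 5179 bases. Another 8 of the 88 genes were at or near 0. Rpl10l and Rpl39l, known from testis, had 0 counts in all libraries. Rpl3l, known from muscle, had 24 counts in LI centre replicate 1 and at most 4 in any other library. Rpl24 had at most 18 counts in a library, and 47.0% of its exon bases overlap Gm28037 on the same strand. Rps12l1, Rps12l2, Rps3a2 and Rps3a3, annotated as pseudogenes, had at most 60 counts in a library.

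To see how much of the RNA went to these genes along the crypt, the counts of all 88 were summed. Their share of all counts in the SI was 3.13%, 3.18% and 2.17% in centre, 2.30%, 2.70% and 1.83% in border and 1.6%, 2.2% and 1.39% in row >3 cells, for replicates 1, 2 and 3. Within each SI replicate the share was lower at each step, and by row >3 it had decreased by 48.9%, 30.8% and 35.9%. SI replicate 3 was the lowest at each level, and its centre library overlapped the row >3 library of replicate 2. The mitochondrial genome took 32.5%, 30.2% and 31.9% of the counts of SI replicate 3 in centre, border and row >3 cells, against 17.2% to 20.8% in SI replicates 1 and 2. Of the counts left without the mitochondrial genome and ribosomal RNA, the ribosomal protein genes made up 4.56%, 4.71% and 3.84% in the 3 SI centre libraries, while SI row >3 cells gave 2.33%, 3.16% and 2.46%. These groups did not overlap, and replicate 3 was not the lowest in row >3 cells. In the LI, the share was 2.33%, 3.06% and 3.51% in centre, 2.24%, 2.91% and 3.18% in border and 2.2%, 2.56% and 2.80% in row >3 cells. On this scale it was lower at each step within each LI replicate too, and had decreased by 5.44%, 16.3% and 20.1% by row >3, but the groups overlapped. Without the mitochondrial genome, 19.8% to 27.0% of LI counts, and ribosomal RNA, LI replicate 1 went from 3.38% in centre to 3.45% in border and 3.34% in row >3 cells. The mean share of SI centre cells was 2.82 ± 0.57% (SD, n = 3) and that of SI row >3 cells 1.73 ± 0.419%, while LI centre cells had 2.97 ± 0.596% and LI row >3 cells 2.52 ± 0.302%.

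The scale mattered for the LI. Against the library total times the TMM factor, LI replicate 1 went from 21221 CPM in centre to 21718 CPM in border and 23214 CPM in row >3 cells, whereas LI replicates 2 and 3 went from 30353 to 26548 CPM and from 34387 to 29077 CPM. On this scale all SI replicates were still lower in row >3 cells, going from 27279 to 16964 CPM, from 29016 to 22033 CPM and from 23654 to 16978 CPM. All 3 SI row >3 libraries then lay below all 3 SI centre libraries and below all 3 LI row >3 libraries. Pseudogenes of ribosomal proteins held between 0.593 and 0.785 counts per 100 counts of the ribosomal protein genes, and how reads that match both were assigned was not tested.

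**Figure D1:**
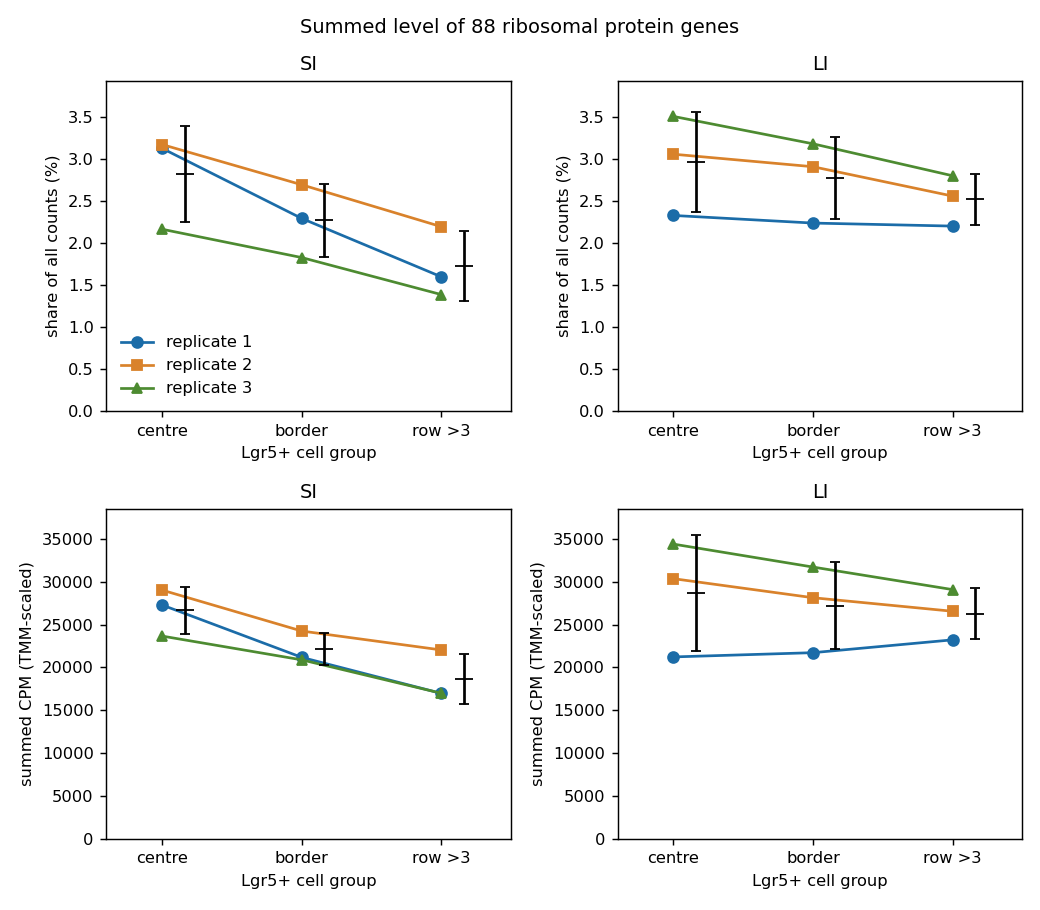
Summed level of the 88 ribosomal protein genes as a share of all counts in % (top) and as TMM-scaled CPM (bottom) in centre, border and row >3 Lgr5+ cells of SI (left) and LI (right). Coloured lines join libraries with the same replicate number and black bars give the mean and SD of 3 libraries; the share falls along all 6 lines at the top, and at the bottom LI replicate 1 rises from 21221 to 23214 CPM.

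Comparing row >3 with centre cells of the SI, 27 of the 86 genes tested were lower at an adjusted p under 0.05 in the quasi-likelihood fit of edgeR, adjusted by Benjamini-Hochberg over all genes, and none was higher, with 58 of the 86 at an unadjusted p under 0.05, as were 23.9% of all genes. The 27 are 31.4% of the 86, where 5.82% of all 26717 genes tested were called lower. The median log2 fold change was -0.51, against 0.051 for the 8690 genes with a mean CPM of at least 10, and 84 of the 86 lay below 0. Both subunits took part, with 11 of 33 small and 16 of 47 large subunit genes of a mean CPM of at least 10 and medians of -0.53 and -0.50. Of these 80 genes, 54 had all 3 row >3 libraries below all 3 centre libraries, 67.5% against 21.9% of the 8690 genes. When the replicate number was added as a block in each site, 69 were called lower, where 10.5% of all genes were, and the 27 were all among them. The count rests on single libraries and was 9, 4 and 28 without SI centre replicate 1, 2 or 3 and 1, 38 and 4 without SI row >3 replicate 1, 2 or 3. Of all genes, 3.53%, 3.95% and 6.35% and then 2.92%, 5.41% and 4.11% were called lower in these fits. Without all 3 SI replicate 3 libraries it was 21, where 7.09% of all genes were called, and 20 of them were among the 27. With these left out and the block added, 68 were lower, where 10.6% of all genes were, and Rps4l was higher. Summed goblet markers were at 35302 to 51918 CPM in these row >3 and 776 to 11989 CPM in these centre libraries, summed S phase genes at 486 to 964 and 1264 to 2008 CPM, and 17 of the 20 S phase genes were called lower. Their part in the result was not tested.

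Rpl10a, which forms the mobile L1 stalk where spent tRNA leaves, had the smallest adjusted p. SI centre libraries had 205, 225 and 217 CPM of it, border libraries 164, 199 and 141 CPM and row >3 libraries 120, 154 and 116 CPM. The row >3 libraries all lay below the centre libraries, and within each replicate the level was lower at each step. Its log2 fold change of row >3 over centre was -0.73 (standard error 0.17, adjusted p = 0.00639 by edgeR). The gene lies on chromosome 17 of GRCm38 from 28328471 to 28331033.

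Rpl36a, a large subunit protein near the exit site for tRNA, encoded on chromosome X, had 172, 194 and 165 CPM in SI centre, 103, 152 and 126 CPM in border and 98.9, 107 and 93.9 CPM in row >3 cells. The border and row >3 groups overlapped, and neither reached the centre group. Its log2 fold change was -0.82 (standard error 0.20, adjusted p = 0.00780 by edgeR), and it was called by all 16 alternative fits run for it, with adjusted p values up to 0.0431. Rpl10a, Rps9 and Rps18 each missed it in 1 of these.

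Rps9, a small subunit protein that binds ribosomal RNA early in assembly, went from 455, 469 and 367 CPM in SI centre to 331, 391 and 271 CPM in border and 241, 281 and 240 CPM in row >3 cells. Its border libraries overlapped the centre ones, but the row >3 libraries did not. The log2 fold change of row >3 over centre was -0.76 (standard error 0.19, adjusted p = 0.00896 by edgeR). Rpl13a, a large subunit protein with a known second role in silencing of inflammatory mRNAs, had 755, 820 and 707 CPM in centre, 636, 722 and 607 CPM in border and 436, 605 and 438 CPM in row >3 cells. Its row >3 libraries lay below all border and centre libraries, that of replicate 2 only just. The log2 fold change was -0.63 (standard error 0.16, adjusted p = 0.0101 by edgeR). Rpl12, at the base of the acidic stalk, went from 429, 450 and 327 CPM in centre to 304, 334 and 267 CPM in border and 214, 287 and 182 CPM in row >3 cells. The log2 fold change was -0.82 (standard error 0.21, adjusted p = 0.0102 by edgeR), and the libraries of row >3 and centre did not overlap.

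Rpsa, the gene with the highest CPM, was among the 27 as well. It had 1440.4, 1664 and 1156 CPM in SI centre, 1254, 1432 and 1026 CPM in border and 825, 1168 and 739 CPM in row >3 cells (log2 fold change of row >3 over centre -0.64, standard error 0.18, adjusted p = 0.0192 by edgeR). The replicate 2 row >3 library slightly exceeded the replicate 3 centre library. The stalk proteins Rplp0, Rplp1 and Rplp2 had log2 fold changes of -0.36, -0.50 and -0.52 and were not called. Rplp0 had 964, 936 and 758 CPM in SI centre cells, and its row >3 libraries, with 644, 828 and 599 CPM, overlapped them.

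**Figure D2:**
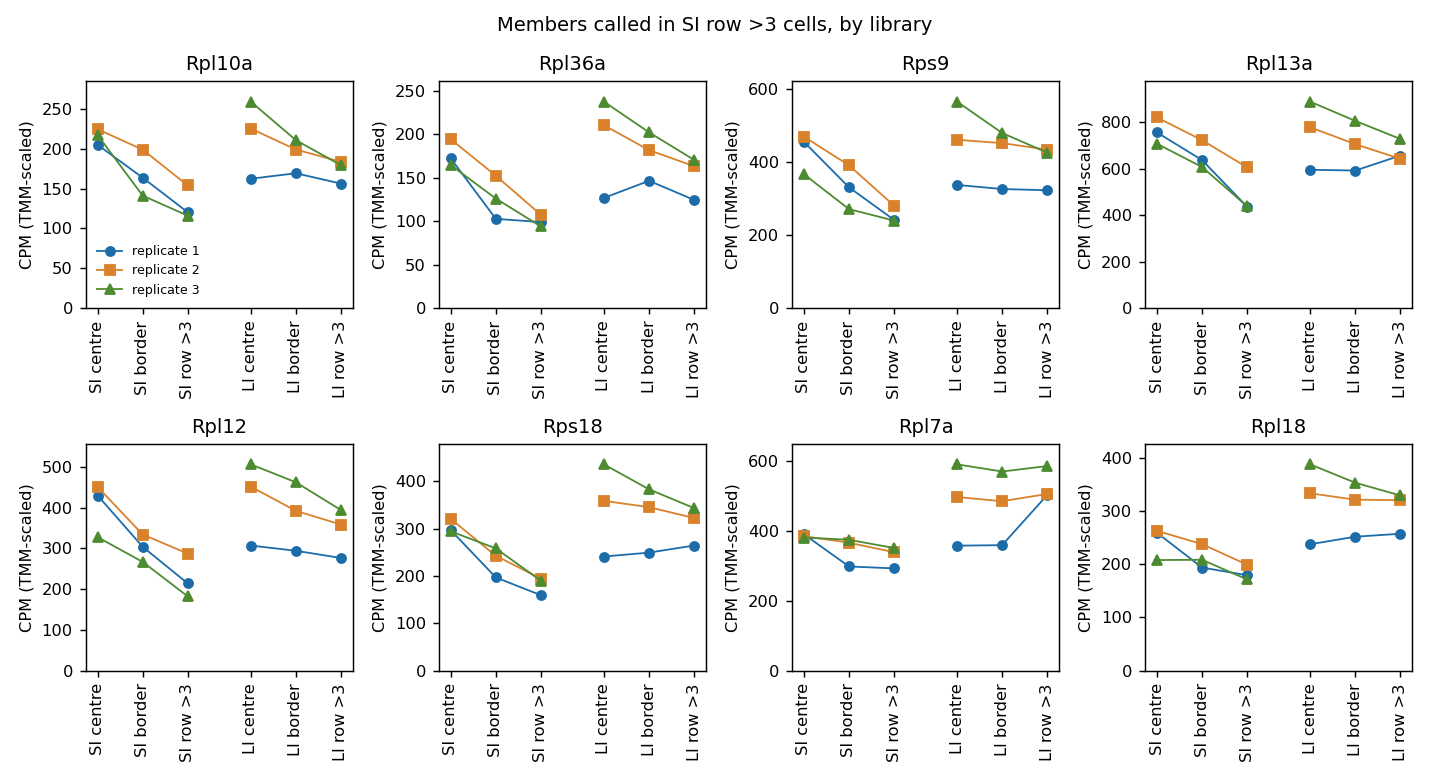
TMM-scaled CPM of 8 ribosomal protein genes in centre, border and row >3 Lgr5+ cells of SI (left of each panel) and LI (right), with lines joining libraries of the same replicate number and each axis starting at 0. In the SI each line ends lower in row >3 than in centre cells, for Rpl10a from 205 to 120 CPM in replicate 1, while LI replicate 1 of Rpl7a rises from 358 to 502 CPM.

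A few genes lay apart from this pattern in SI row >3 cells. Rps4l and Rps27l had log2 fold changes of 0.58 and 0.38 and were the 2 of 86 above 0, and Rps29 had -0.062. None of the 3 was called. At the other end, Rps15a had -0.87 (standard error 0.31, adjusted p = 0.0780 by edgeR), with 129, 138 and 90.7 CPM in centre and 59.6, 74.6 and 61.6 CPM in row >3 cells. These libraries did not overlap, although the gene was not called.

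**Figure D3:**
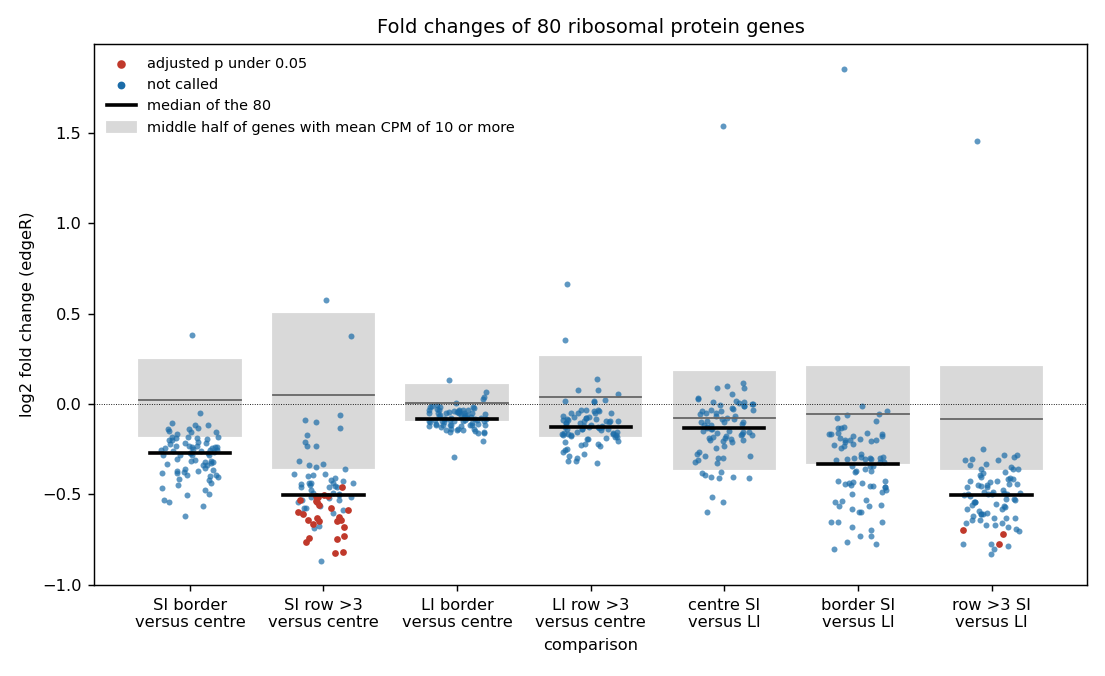
Log2 fold changes from edgeR of the 80 ribosomal protein genes with a mean CPM of at least 10 in 7 comparisons, with called genes in red, the median of the 80 as a black bar and the interquartile range and median of the 8690 genes at that level in grey. The 27 called genes of SI row >3 against centre lie below 0, and the single high point in each of the 3 comparisons of SI with LI is Rps4l, at 1.54, 1.86 and 1.46.

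When SI border cells were set against SI centre cells, edgeR's quasi-likelihood test called 0 of the 86 genes and DESeq2 also called 0, with 11 at an unadjusted p under 0.05 by edgeR, as were 8.98% of all genes. Of all genes tested, edgeR called 0% lower and 0.0112% higher, and DESeq2 called 0.138% lower and 0.644% higher. The log2 fold changes were below 0 for 84 of the 86, with a median of -0.28, against 0.020 for the 8690 genes with a mean CPM of at least 10. Among the 80 genes at that level, 31 had all border libraries below all centre libraries, 38.8% against 6.21% of the 8690, and 68 were lower in all 3 replicate pairs, 85.0% against 20.1%. A replicate block in each site called 13 lower, where 0.767% of all genes were. They included Rps4x, Rpl32, Rpl12, Rpl35a, Rpl36a, Rpl34, Rps20, Rps9, Rpl5, Rps26, Rps21 and Rps18. Rps4x, a small subunit protein encoded on chromosome X, had the smallest p in both fits, with 383, 383 and 338 CPM in centre and 229, 306 and 265 CPM in border cells. Its log2 fold change was -0.47 in both, with an adjusted p of 0.416 without and 0.0134 with the block by edgeR. The blocked count rests on SI border replicate 3. Without that library the block called 1 gene, Rpl32, where 0.0188% of all genes were called lower, although without all 3 SI replicate 3 libraries it called 20, where 0.546% were. Without SI border replicate 3 and without the block, edgeR again called 0 and the median was -0.25. The remaining border libraries then lay below all centre libraries for 37 of the 80 genes, against 12.2% of the 8690. Of the 80, 78 were lower in both remaining pairs, against 32.6%.

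From border to row >3 cells of the SI, edgeR and DESeq2 called 0 of the 86. At an unadjusted p under 0.05 by edgeR there were 8, fewer than the 13.6% of all genes. Of all genes, edgeR called 0.764% lower and 0.842% higher, and DESeq2 called 2.36% lower and 2.52% higher. All row >3 libraries lay below all border libraries for 7 of the 80, 8.75% against 10.4% of the 8690 genes. They lay above all border libraries for 1 of the 80, 1.25% against 13.5%. The median log2 fold change was -0.21, and 55 of the 80 were lower in all 3 pairs, 68.8% against 25.6% of the 8690 genes. The block within site called 17 lower, where 4.33% of all genes were, led by Rpsa with -0.46 (standard error 0.092, adjusted p = 0.00346 by edgeR). Rpl12, Rps9 and Rps18 were called with the block at both steps, and Rpl13 and Rpl14 were the 2 of the 17 that were not among the 27 of row >3 against centre. Rpl13a had the smallest p without the block, with -0.41 (adjusted p = 0.212 by edgeR). Without SI border replicate 3 edgeR called 0 with a median of -0.23. All row >3 libraries then lay below the remaining border libraries for 22 of the 80, against 23.0% of the 8690. Of the 80, 59 were lower in both remaining pairs, against 33.0%. With the block the count was then 11, where 4.18% of all genes were called lower, and 10 without all 3 SI replicate 3 libraries, where 4.67% were. The median ran from -0.31 without SI row >3 replicate 2 to -0.13 without SI border replicate 2.

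In the LI none of the genes passed the test. For border against centre, edgeR and DESeq2 called 0 of the 86, with 1 at an unadjusted p under 0.05 by edgeR, and for row >3 against centre both called 0, with 2, where 1.38% and 6.96% of all genes had such a p. The medians were -0.081 and -0.13, against 0.0064 and 0.037 for the 8690 genes with a mean CPM of at least 10. Of all genes tested, edgeR called 0% and 0.0187% lower, and DESeq2 called 0% and 0.24% lower. With the block within site the counts were still 0, with 2 and 11 at an unadjusted p under 0.05 by edgeR, against 2.33% and 14.3% of all genes, where 1.31% of all genes were called lower in row >3 cells. With the SI replicate 3 libraries left out of that blocked fit, Rpl12 and Rpl4 were called lower in LI row >3 than in LI centre cells, where 3.04% of all genes were. No gene of the 80 had all LI row >3 libraries below all LI centre libraries, where 12.2% of the 8690 genes did, and 14 were lower in all 3 pairs, 17.5% against 26.3%. For LI border against centre 0 of the 80 had all border libraries below all centre libraries, where 3.31% of the 8690 did. Of the 80, 20 were lower in all 3 pairs, 25% against 15.8%. From border to row >3 cells of the LI, both tools again called 0, with 1 at an unadjusted p under 0.05 by edgeR, against 3.72% of all genes, and a median of -0.045. Here 0 of the 80 had all row >3 libraries below all border libraries, against 8.71% of the 8690. Of the 80, 18 were lower in all 3 pairs, 22.5% against 22.7%. The sign of all 3 medians rests on single libraries. When 1 library was left out, border against centre ran from -0.28 to 0.083 and was above 0 without LI centre replicate 3 or LI border replicate 1. Row >3 against centre ran from -0.33 to 0.033 and was above 0 without LI centre replicate 3. Row >3 against border ran from -0.20 to 0.077 and was above 0 without LI border replicate 3 or LI row >3 replicate 1. Rpl10a shows the pattern, with 162, 225 and 259 CPM in LI centre and 156, 184 and 179 CPM in LI row >3 cells, where replicates 2 and 3 were lower and replicate 1 hardly moved (log2 fold change -0.32, standard error 0.17, adjusted p = 0.773 by edgeR). The smallest p in both comparisons was that of Rpl3l, whose 24 counts in LI centre replicate 1 stand against 0 in all LI border and row >3 libraries.

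**Figure D4:**
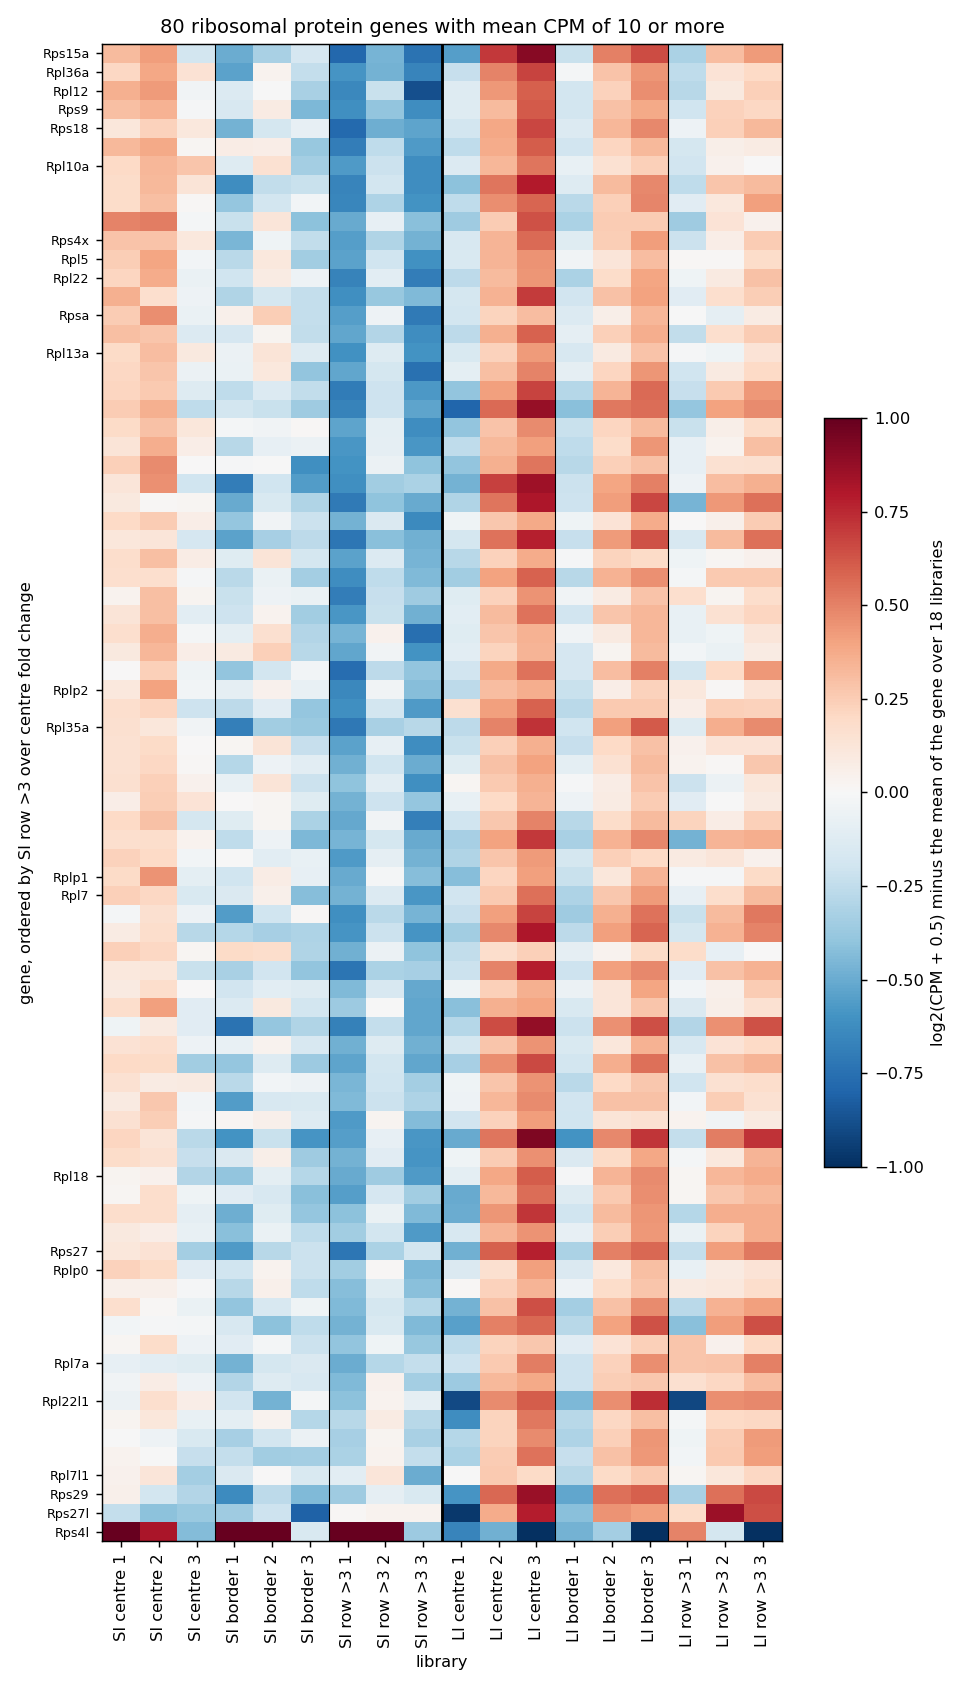
Log2(CPM + 0.5) of the 80 ribosomal protein genes minus the mean of each gene over 18 libraries, with genes in rows ordered by their fold change in SI row >3 over centre cells libraries in columns and labels for genes described in the text. Colours saturate at -1 and 1; SI row >3 replicates 1 and 3 are blue for nearly all genes and replicate 2 is paler, LI centre replicates 2 and 3 are mostly red, LI centre replicate 1 is mostly pale to mid blue, and Rps4l in the last row runs against the rest.

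Comparing the sites, row >3 cells differed most. There, 3 of the 86 genes were lower in the SI and none higher, where 1.32% of all genes tested were called lower, and the median difference of SI from LI was -0.50 on the log2 scale, against -0.082 for the 8690 genes with a mean CPM of at least 10. Of the 80 genes, 48 had all SI libraries below all LI libraries, 60.0% against 16.5%, and 61 of the 86 had an unadjusted p under 0.05 by edgeR, against 15.7% of all genes. Rpl18, a large subunit protein, had 179, 199 and 171 CPM in SI and 257, 320 and 329 CPM in LI row >3 cells, without overlap. Its log2 fold change was -0.72 (standard error 0.17, adjusted p = 0.0181 by edgeR), and 9.2% of its exon bases overlap Sphk2 on the opposite strand. Rps18, in the head of the small subunit, had 160, 195 and 190 CPM in SI and 265, 323 and 344 CPM in LI row >3 cells (log2 fold change -0.77, standard error 0.19, adjusted p = 0.0198 by edgeR), and 6.4% of its exon bases overlap Vps52 on the opposite strand. Rpl7a, a large subunit protein, had 293, 339 and 351 CPM in SI and 502, 505 and 585 CPM in LI row >3 cells (log2 fold change -0.70, standard error 0.17, adjusted p = 0.0220 by edgeR). All 3, 3.49% of the 86, were also called without the SI replicate 3 libraries, where a larger share of all genes, 5.36%, was called lower. The count was 0 without SI row >3 replicate 1, LI row >3 replicate 2 or LI row >3 replicate 3, and 12 without SI row >3 replicate 2, 2 without SI row >3 replicate 3 and 9 without LI row >3 replicate 1. Of all genes, 0.279%, 0.525%, 0.583%, 0.904%, 2.45% and 1.42% were called lower in these fits, in the same order. With the replicate block over all libraries 31 of the 86 were lower, where 3.03% of all genes were. However, same-numbered SI and LI row >3 libraries did not deviate together in every pair.

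In centre cells, edgeR and DESeq2 called 0 of the 86 genes between the sites. At an unadjusted p under 0.05 by edgeR there were 2, against 14.5% of all genes. Of all genes, edgeR called 0.805% lower in the SI and 1.19% higher, and DESeq2 called 2.05% lower and 2.59% higher. None of the 80 genes had all SI below all LI libraries, where 20.5% of the 8690 did. The median log2 fold change was -0.13, and -0.018 without the SI replicate 3 libraries. Its sign rests on 1 library, since it was 0.051 without LI centre replicate 3 and -0.28 without LI centre replicate 1. In border cells, edgeR called 0, with 29 at an unadjusted p under 0.05, against 13.9% of all genes, of which 0.599% were called lower and 1.15% higher, and DESeq2 called Rps4l higher, where it called 2.9% of all genes higher. The median was -0.34, and ran from -0.50 without LI border replicate 1 to -0.22 without LI border replicate 3. Equal replicate numbers deviated together between border cells of SI and LI, and with the block over all libraries 4 genes were lower, where 1.97% of all genes were, and 1 was higher, Rps4l, where 2.3% were. Rpl34, Rps26, Rpl35a and Rps18 were the lower ones. These 4 calls rest on SI border replicate 3. Without it, Rps4l was still called with that block, where 1.75% of all genes were higher, and no gene of the 86 was called lower, where 1.94% were, with 18 at an unadjusted p under 0.05, against 14.8% of all genes. Without the block and that library, edgeR called 0 and the median was -0.30. In border cells 9 of the 80 genes had all SI below all LI libraries, 11.2% against 13.7% of the 8690. Rpl35a, 1 of these, had 45.6, 58.0 and 57.0 CPM in SI border and 64.1, 98.1 and 113 CPM in LI border cells, without overlap (log2 fold change -0.77, adjusted p = 0.0994 without and 0.0143 with the block, by edgeR).

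The difference between the sites was itself tested. For border against centre, edgeR and DESeq2 called 0 of the 86 genes, with 0 at an unadjusted p under 0.05 by edgeR, against 2.65% of all genes, and the median difference of SI minus LI was -0.20. It ran from -0.38 without LI centre replicate 3 to -0.026 without LI centre replicate 1, and was -0.18 without SI border replicate 3. For row >3 against centre both called 0, with 4 at an unadjusted p under 0.05 by edgeR, against 6.74% of all genes. In either contrast edgeR called 0% of all genes. DESeq2 called 0.165% of all genes lower and 0.393% higher for row >3, and 0% and 0.00749% for border against centre. The median difference was -0.38, and 81 of 86 genes had a lower fold change in the SI than in the LI. It ran from -0.55 without LI centre replicate 3 to -0.18 without LI centre replicate 1. Once replicate numbers entered as a block in each site, 6 genes were called for row >3 against centre, all with a larger fall in the SI, where 0.808% of all genes were called in that direction. They were Rps18, Rps9, Rpl12, Rpsa, Rpl22 and Rpl5, the last a carrier of ribosomal RNA that is also known for its binding to Mdm2. With the block, Rps18 had log2 fold changes of -0.75 (SI) and -0.12 (LI), a difference of -0.63 (standard error 0.14, adjusted p = 0.0255 by edgeR), against an adjusted p of 0.687 without it. With the block and without all 3 SI replicate 3 libraries, 21 genes were called, where 2.19% of all genes were.

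Paralogues were set against their parent genes within the same library, which no scaling changes. Rps27l, known as a target of p53, had 15.2, 13.2 and 19.0 counts per 100 counts of Rps27 in SI centre, 22.6, 20.5 and 12.8 in SI border and 32.7, 25.1 and 22.8 in SI row >3 cells. The corresponding LI values were 13.7, 16.8 and 19.9 in centre, 18.1, 19.0 and 17.5 in border and 26.2, 26.9 and 21.3 in row >3 cells. In both sites all row >3 libraries lay above all centre libraries. The mean ratio was 1.70 times the centre value in the SI and 1.48 times in the LI, with an exact two-sided permutation p of 0.1 in each, the smallest that 3 against 3 libraries allow. Rps27l itself had 16.3, 14.5 and 14.9 CPM in SI centre cells, against 19.5, 20.0 and 20.0 CPM in row >3 cells. Rps27 had 108, 110 and 78.2 CPM in the centre and 59.7, 79.4 and 87.3 CPM in row >3 cells. The log2 fold change of Rps27l was 0.38 in the SI (adjusted p = 0.573 by edgeR) and 0.35 in the LI (adjusted p = 0.969 by edgeR).

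Rpl22l1, which can replace Rpl22 in the ribosome, had 6.90, 7.26 and 9.17 counts per 100 of Rpl22 in SI centre and 9.93, 9.21 and 12.6 in SI row >3 cells, which did not overlap by a narrow margin (exact permutation p = 0.1, n = 3 against 3). In the LI the groups overlapped, with 5.25, 9.35 and 9.44 in the centre libraries and 4.48, 10.9 and 9.58 in those of row >3. Across the 18 libraries, Rpl27 (r = 0.913) and Rps13 (r = 0.866) were among the 3 genes whose log2 CPM was most like that of Rpl22l1, a description over libraries that share groups and scaling. Rpl7l1 had 11.6, 12.6 and 11.7 counts per 100 of Rpl7 in SI centre and 17.1, 16 and 14.1 in SI row >3 cells, and it overlapped between all LI groups.

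Rps4l, annotated as a transcribed processed pseudogene on chromosome 6, had its higher levels in SI replicates 1 and 2. It had 18, 15.1 and 6.06 CPM in SI centre, 21.2, 23.2 and 7.47 in SI border and 23.5, 27.8 and 6.37 in SI row >3 cells, against 5.11, 5.84 and 2.56 in LI centre, 5.88, 6.50 and 2.05 in LI border and 12, 7.32 and 2.02 in LI row >3 cells. SI replicate 3, with its LI-specific genes, lay nearest to the LI at each level, and replicate 3 was the lowest of the LI too. SI exceeded LI by log2 fold changes of 1.54, 1.86 and 1.46 in centre, border and row >3 cells, with adjusted p values of 0.328, 0.244 and 0.316 by edgeR. Without the SI replicate 3 libraries it was 1.93, 2.31 and 1.91, with adjusted p values of 0.0222, 0.0116 and 0.0124 by edgeR. That fit kept replicate 3 of the LI, which was low for this gene too. Leaving out replicate 3 of the SI alone widens the difference, so these p-values cannot settle whether the sites differ. A fit without replicate 3 of both sites was not run. Reads of Rps4l and of its parent Rps4x may not be told apart with certainty.

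**Figure D5:**
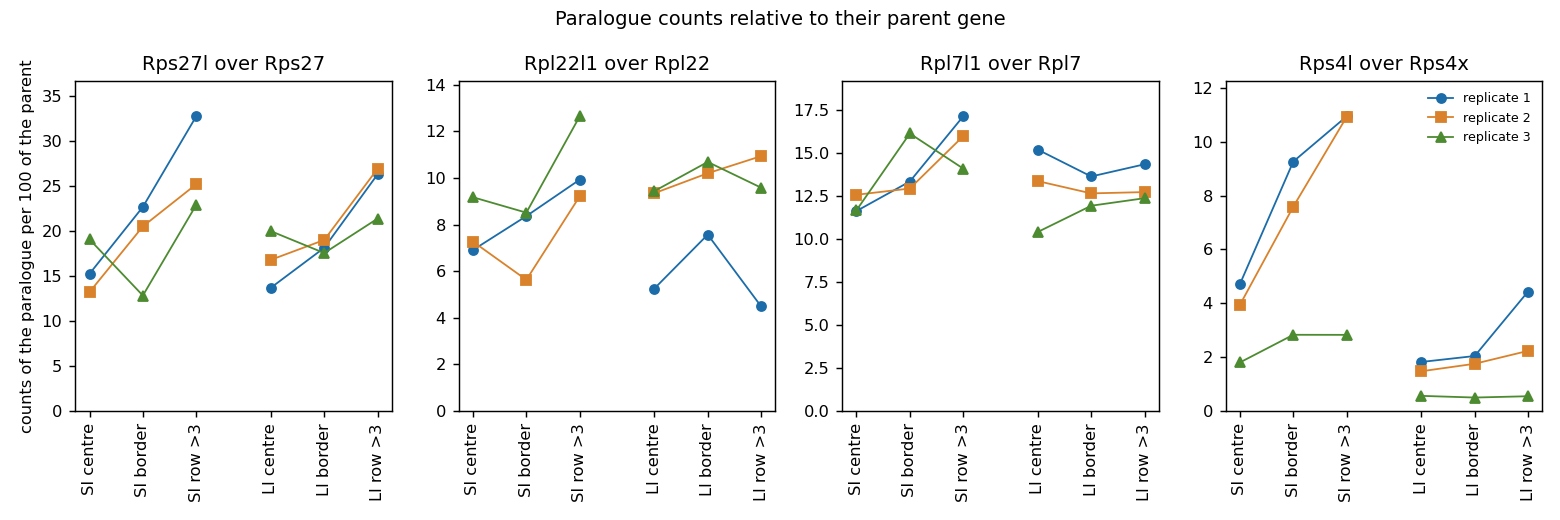
Counts of 4 paralogues per 100 counts of their parent gene in each library, with lines joining libraries of the same replicate number. Rps27l over Rps27 is higher in row >3 than in centre cells in all 6 lines, up to 32.7 in SI replicate 1, and Rps4l over Rps4x reaches 10.9 in SI row >3 replicates 1 and 2.

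Some ribosomal proteins carry symbols outside the rule, and 3 of them are given here. Gnb2l1, the scaffold protein also called Rack1, had 491, 488 and 420 CPM in SI centre and 307, 352 and 314 CPM in SI row >3 cells (log2 fold change -0.52, standard error 0.17, adjusted p = 0.0386 by edgeR). Fau, which is made as a fusion with a ubiquitin-like protein, had 249, 292 and 266 CPM in SI centre and 221, 252 and 285 CPM in row >3 cells, which overlapped (log2 fold change -0.090, adjusted p = 0.828 by edgeR). Rpl36al, the autosomal paralogue of Rpl36a, had 69.6, 65.4 and 61.8 CPM in SI centre, 72.8, 81.9 and 77.1 CPM in border and 91.7, 110 and 85.6 CPM in row >3 cells. The row >3 libraries lay above all centre libraries, opposite to Rpl36a, and the log2 fold change was 0.55 (standard error 0.19, adjusted p = 0.0566 by edgeR).

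Of the wider machinery, ribosome biogenesis had the most genes called. Of 49 tested, 19 were lower in row >3 than in centre cells of the SI, where 5.82% of all genes tested were, and none higher, where 7.35% were. Their median log2 fold change was -0.59, and 0 were called in the LI by edgeR, where the median was -0.18. The nucleolar proteins Ncl and Npm1, which process and carry ribosomal RNA precursors, had log2 fold changes of -1.11 (adjusted p = 0.00270 by edgeR) and -1.18 (adjusted p = 0.00562 by edgeR). Ncl had 1588, 1677 and 1297 CPM in SI centre and 705, 944 and 467 CPM in SI row >3 cells. The genes with the smallest adjusted p were Wdr12, with -1.41, Nop58, with -0.84, and Rrp1b, with -1.32. Of 15 genes for transcription of ribosomal RNA, 4 were lower, against the same 5.82% of all genes, with -0.86 for Taf1d, -0.95 for Polr1b and -0.78 for Polr1a, and none higher. Between border and row >3 cells of the SI, 4 biogenesis genes and Taf1d were lower, where 0.764% of all genes were, the 4 being Rrp1b, Rrs1, Nop56 and Nob1.

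Among 15 regulators of ribosomal protein synthesis, Myc was lower and its partner Max higher in SI row >3 cells, which for a list of this length is near the 5.82% and 7.35% of all genes. Myc, a transcription factor that drives ribosome production, had 80.8, 65.7 and 79.8 CPM in SI centre, 85.2, 73.0 and 44.1 CPM in border and 24.7, 31.6 and 24.0 CPM in row >3 cells. The centre and border libraries overlapped, and the row >3 libraries lay below both. Its log2 fold change of row >3 over centre was -1.49 (standard error 0.21, adjusted p = 7.53e-05 by edgeR), and that of Max was 0.62 (adjusted p = 0.0157 by edgeR). In LI row >3 cells, Myc had 48.9, 51.9 and 55.2 CPM, and the difference of SI from LI row >3 cells was -0.96 (adjusted p = 0.00743 by edgeR). Larp4 was lower in SI than in LI border cells, with -0.70 (adjusted p = 0.0316 by edgeR).

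A list of 38 genes was made up of translation factors together with Nap1l1, Naca, Btf3 and Tpt1. Of these, 4 were lower and 1 higher in SI row >3 than in centre cells, with a median of -0.21. Of all genes, 5.82% were lower and 7.35% higher, and whether the list differs from these shares was not tested. Nap1l1, a histone chaperone and no translation factor, fell most, from 226, 226 and 170 CPM to 54.4, 84.1 and 54.2 CPM (log2 fold change -1.69, adjusted p = 2.77e-05 by edgeR). Eef1b2 and Eif4b had -0.81 and -0.55, and Eif2s2, a subunit of the initiation factor that brings the first tRNA, rose by 0.77 (adjusted p = 0.00189 by edgeR). Of the 76 mitochondrial ribosomal proteins tested, 0 were called by edgeR in either site between row >3 and centre cells, with medians of -0.039 in the SI and 0.12 in the LI. Between the sites, 5 of them were lower in SI row >3 cells, where 1.32% of all genes were, with a median of -0.46. In border cells 1 was lower, where 0.599% of all genes were. In centre cells 0 were called by edgeR, where 0.805% of all genes were lower. The median was -0.33 in border cells and also in centre cells.

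The ribosomal protein genes varied together across libraries. The log2 CPM of each of the 80 genes with a mean CPM of at least 10 was correlated with the mean of the other 79, with a median r of 0.927 over 18 libraries that share groups and scaling, and 75 of the 80 had an r of at least 0.8. The exceptions were Rps4l (r = -0.523), Rps27l (0.599), Rpl22l1 (0.731), Rps15 (0.738) and Rpl7l1 (0.788), of which 4 are paralogues of another member. Counts of large subunit genes were 1.67 to 1.89 times those of small subunit genes in all 18 libraries, and this ratio overlapped between centre and row >3 cells in both sites.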

How the data were processed

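RNA of sorted cells (at least 270 pg) was made into stranded SMART-Seq libraries for paired sequencing with a read length of 100 nt. The authors demultiplexed reads with bcl2fastq, trimmed them with Skewer, aligned them to mm10 with STAR and deposited raw counts per gene, the values used here. How strand was handled in counting, and with which annotation, is not given in the sources used here. Their table of counts divided by size factors was not used. Columns were mapped to samples by their labels.

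Genes with a mean count above 0 (26717 of 43346) were fitted with edgeR 4.0.16 (R 4.3.3; TMM factors, robust quasi-likelihood, 1 model of 6 groups) and p-values were adjusted by Benjamini-Hochberg over all of them, with a threshold of 0.05. The 11 comparisons were the levels within a site, the sites within a level and the differences between sites. Standard errors are the log2 fold change over the root of F. DESeq2 1.42.0, other filters and factors, a replicate block and leaving out libraries were the alternatives. Replicate numbers are the labels' own. Within a site all same-numbered libraries deviated together (r over 0.1), as did SI and LI border cells (0.156, 0.162 and 0.148), whereas SI and LI centre (0.0235, 0.197 and 0.0561) and row >3 cells (-0.0388, 0.222 and 0.0734) did not in every pair. The models were tested on simulated data. Positions are from GENCODE M21 (GRCm38), lengths from principal transcripts, and promoter sequences from RefSeq. Genes named with values were up to 5 per direction with the smallest adjusted p among those called in a comparison, the one with the smallest p where fewer than 2 were called, the highest and lowest per kb of each subunit, up to 3 a side farthest from the median of the ribosomal protein genes, the stalk proteins and Rpsa, the paralogues, ribosomal proteins outside the symbol rule, and up to 3 called genes per direction of each list. Those under this rule with near 0 counts were summarised. A few genes that the rule names are not reported here. Ncl and Npm1 were chosen after their values were seen. The gene members and lists were chosen with earlier results of these data known. Total counts per library set the counting error of each value, and no molecular identifiers were used.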

Additional observations from a re-analysis of the deposited data

Results flagged for a closer look

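For 6 ribosomal protein genes the change from centre to row >3 cells differed between SI and LI when the replicate number was a block within site, by edgeR's test of the difference itself, while 0 of 86 passed without the block. Of all genes, 0.808% were called in the direction of these 6 and 1.51% in the other with the block. Without all 3 SI replicate 3 libraries the block called 21, where 2.19% and 5.44% of all genes were called in these directions. With the block, the log2 fold change in the SI minus that in the LI was -0.63 for Rps18 (adjusted p = 0.0255), -0.57 for Rps9 (adjusted p = 0.0292) and -0.55 for Rpl12 (adjusted p = 0.0308). It was -0.53 for Rpsa (adjusted p = 0.0357), -0.61 for Rpl22 (adjusted p = 0.0473) and -0.50 for Rpl5 (adjusted p = 0.0486). All 6 were lower in SI row >3 than in SI centre cells, with log2 fold changes of -0.75, -0.76, -0.83, -0.65, -0.66 and -0.65 in that order, against -0.12, -0.19, -0.28, -0.12, -0.054 and -0.15 in the LI.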

How the results depend on the processing

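The medians and the summed shares moved by less than the spread between libraries in each alternative run, and no called gene changed sign. Where any gene was called without an alternative, 15 of 30 counts stayed within 1.5 times and 15 did not. Where none was, 141 of 156 stayed at 0. A block for replicate number within each site called 13 genes for SI border against centre, 69 for SI row >3 against centre, 17 for SI row >3 against border and 6 for the difference between sites in row >3 against centre, where 0.767%, 10.5%, 4.33% and 0.808% of all genes were lower. With the block over all libraries, 47 were called for SI row >3 against centre, where 7.55% of all genes were lower, and 1, 5 and 32 for SI against LI in centre, border and row >3 cells, where 3.06%, 1.97% and 3.03% were lower and 2.55%, 2.3% and 3.86% higher. The block changed no other count by over 1.5 times. Fits chosen after seeing the data joined the block within site to leaving out libraries. Without SI border replicate 3 they gave 1 for SI border against centre and 11 for SI row >3 against border, where 0.0188% and 4.18% of all genes were lower, and with the block over all libraries 1 for border cells between the sites, where 1.75% were higher. Without all SI replicate 3 libraries they gave 20, 69 and 10 for SI border against centre, row >3 against centre and row >3 against border, 2 for LI row >3 against centre and 21 for the difference between sites, where 0.546%, 10.6%, 4.67%, 3.04% and 2.19% were lower. Library size alone gave 44 for SI row >3 against centre, where 7.13% of all genes were lower. DESeq2 gave 1 for border and 6 for row >3 cells between the sites, where 2.11% were lower in the latter. Without all SI replicate 3 libraries, 1 was called higher in SI than in LI centre and 1 in border cells, where 4.51% and 3.7% of all genes were. Leaving out each library in turn gave 1 to 38 for SI row >3 against centre and 0 to 12 for SI against LI row >3 cells. The cause was not tested. The block within site was not run between sites, where it is nested. An older quasi-likelihood fit, chosen after seeing the data, gave 23 for SI row >3 against centre, all among the 27. The share of all genes called in that fit is not given here, so its count is not read further. With 3 libraries a group, the 80 genes of a mean CPM of at least 10 had counts enough that the spread between libraries limits the tests, and the 8 below could not be judged at this depth.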
